A study of Mus musculus with 6 samples.

Results

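The expression of 10 genes of the FGF to ERK pathway was followed across ETX-embryos, aggregates of mouse stem cells of embryonic, trophoblast and extraembryonic endoderm origin that come to look like an embryo soon after implantation. They are the ligand genes Fgf8 and Fgf5, the receptor genes Fgfr1 and Fgfr2, the ETS transcription factor genes Etv4 and Etv5, and the feedback inhibitor genes Spry2, Spry4, Dusp4 and Dusp6. The members were chosen by name, with their posterior and anterior values in these libraries already known, so their differences between the domains are given as a description and carry no test. All 10 are among the 12826 genes of the deposited table, and 9 of them are among the 10914 genes averaging 1 FPKM or more that entered the fits (FPKM is a fragment count scaled to transcript length and library size). Etv4, with a mean of 0.34 FPKM, is the exception.

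FGF ligands bind receptor tyrosine kinases together with heparan sulphate and pass the signal through Ras and RAF to the kinase ERK. ERK activity induces ETS factors of the Etv4 and Etv5 family and also its own brakes: Sprouty proteins act upstream of or at RAF, and dual-specificity phosphatases such as Dusp6 remove the activating phosphates from ERK. In the gastrulating mouse embryo Fgf5 is a known epiblast gene, Fgf8 is known from the primitive streak, where it is needed for cells to move away, Fgfr1 is the main receptor of the epiblast and streak, and Fgfr2 is known from extraembryonic lineages.

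The series holds 6 libraries, with 1 anterior and 1 posterior piece for each of the single ETX-embryos A, B and C. No treatment was used, and all came from structures grown in aggregation plates with a line in which the T (Brachyury) promoter drives GFP. The trophoblast part was cut off, the embryonic part was cut lengthwise, and the piece with GFP was taken as prospective posterior and the one without as prospective anterior. The strain of the line and the hours in culture are not given in the sources used here, and a stem cell structure of this kind carries only the lineages of its founder lines. The pieces are bulk samples, in which fewer cells of a type and less RNA per cell cannot be told apart.

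The libraries differed in ways that touch every result below. Relative to anterior A, the depth was 1.40 to 1.42 in the other anterior libraries and 1.56 to 2.82 in the posterior ones, so depth and domain cannot be told apart. Genes listed at 0 made up 13.6% to 27.2% of the table in the anterior and 5.34% to 20.0% in the posterior libraries. Anterior A stood apart, with Spearman correlations of 0.50 to 0.61 to the other libraries across genes. The reporter gene T went against the labels in embryo C: it was listed at 0 in anterior A, anterior B and the library labelled posterior C, while the piece labelled anterior C held 42.5 FPKM, posterior A 5.03 FPKM and posterior B 15.6 FPKM. Other streak genes of embryo C ran with the labels: log2(FPKM + 1) was 0 in the anterior against 4.97 in the posterior piece for Mixl1, 0.32 against 4.77 for Nodal and 0 against 4.91 for Sp5. Each result is therefore given by embryo.

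Levels below are log2(FPKM + 1), in which a difference understates the change of genes near 0, and a difference is always posterior minus anterior. The Etv5 gene differed most, Spry4 and Dusp4 differed by about the same amount in every embryo, and Fgf8 differed in embryos A and C and hardly in B. The receptor genes, Fgf5, Etv4 and Spry2 overlapped between the domains. In all, 7 of the 10 genes were higher on the posterior side in all 3 embryos and none was lower in all 3. Among the 10914 tested genes, 900 were lower in all 3. Of the 9 in the fits, 7 were higher in all 3, beside 21.5% of all tested genes. For 5 of the 9, Fgf8, Etv5, Spry4, Dusp4 and Dusp6, every posterior library lay above every anterior one, beside 12.3% of all tested genes. Because known values of this contrast entered the choice of members, nothing is read from those counts. Etv5 and Spry4, with anterior means of 0.96 and 0.10 FPKM, also passed the filter of 1 FPKM only through their posterior libraries.

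**Figure D1:**
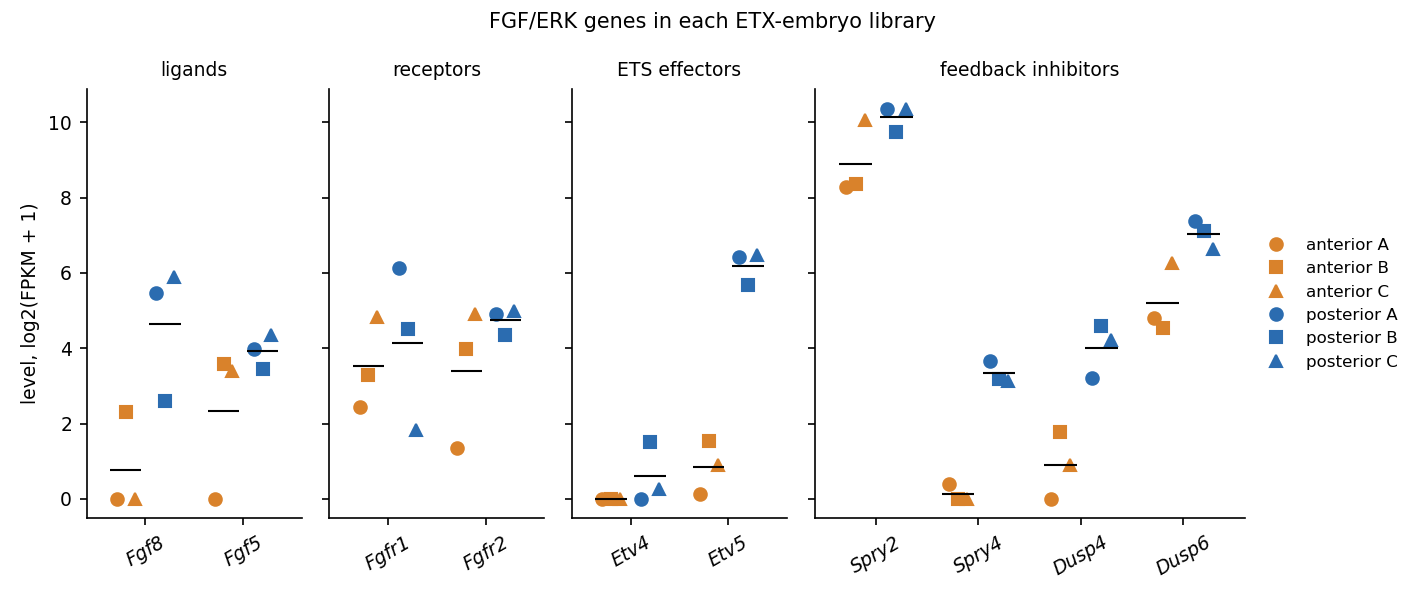
Level of each of the 10 genes (vertical axis, log2(FPKM + 1)). Each point is a library, orange if anterior and blue if posterior, with circles for embryo A, squares for B, triangles for C and black bars at the mean of 3 libraries. Etv5 lies between 0.13 and 1.55 in the anterior and between 5.68 and 6.47 in the posterior libraries, while Fgfr1 has its lowest level in posterior C (1.84).

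Among the ligands, Fgf8 (chromosome 19, 45736491 to 45742941, build mm10) had anterior levels of 0, 2.29, 0 and posterior levels of 5.47, 2.61, 5.88 (embryos A, B, C). Its posterior level was thus high in A and C, and in B the pieces differed by only 0.31. The mean difference was 3.89 ± 3.10 (SD over 3 embryos), with a limma standard error of 1.25. Fgf5 (chromosome 5, 98254184 to 98277033) had anterior levels of 0, 3.57, 3.41 and posterior levels of 3.99, 3.46, 4.35. Anterior A alone was low for Fgf5, and the other 5 libraries spanned less than 1 unit. Its differences were 3.99, -0.11 and 0.94 in embryos A, B and C. The order of the ligands also turned with the library: Fgf8 exceeded Fgf5 by 1.48 and 1.53 in posterior A and C and lay below it by 0.85 in posterior B, by 1.28 in anterior B and by 3.41 in anterior C.

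The receptor genes were detected in every library and did not separate the domains. Fgfr1 (chromosome 8, 25518759 to 25575718) had anterior levels of 2.43, 3.29, 4.83 and posterior levels of 6.12, 4.50, 1.84 (embryos A, B, C). It was higher in the posterior piece of A and B by 3.68 and 1.21, and in embryo C it was lower in the library labelled posterior (difference -2.99). The differences of Fgfr1 and of T thus had the same sign in all 3 embryos. Fgfr2 (chromosome 7, 130162451 to 130266808) had anterior levels of 1.34, 3.97, 4.91 and posterior levels of 4.90, 4.36, 4.99, and anterior A was again the low one. Its differences were 3.56, 0.39 and 0.08. Per transcript length, Fgfr2 exceeded Fgfr1 by 3.15 in posterior C, and in the other libraries Fgfr2 minus Fgfr1 ran from -1.22 to 0.68.

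The ETS factors were unlike each other. Etv5 (chromosome 16, 22381313 to 22439570), an activator of transcription in FGF-stimulated cells, had anterior levels of 0.13, 1.55, 0.89 and posterior levels of 6.42, 5.68, 6.47 (embryos A, B, C). The groups lay more than 4 units apart, and the differences by embryo were 6.29, 4.13 and 5.58, a mean of 5.33 ± 1.10 (SD, 3 embryos). In FPKM these are 0.09, 1.93 and 0.85 against 84.3, 50.3 and 87.7. By rank, Etv5 stood at percentile 23.5, 30.3 and 39.8 of the genes of the anterior libraries and at 90.2, 85.6 and 90.7 of those of the posterior ones. Etv4 (chromosome 11, 101769747 to 101785310), the close relative of Etv5, was listed at 0 in 4 libraries, including posterior A, and reached 1.51 in posterior B and 0.27 in posterior C. Etv5 exceeded Etv4 in each library, by 4.17 to 6.42 in the posterior and by 0.13 to 1.55 in the anterior ones.

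Among the feedback inhibitors, Spry2 and Dusp6 had higher levels than Spry4 and Dusp4 in every library. Spry2 (chromosome 14, 105891947 to 105896819), a Sprouty inhibitor of receptor tyrosine kinase signalling, had the highest level of the 10 in every library. It had anterior levels of 8.27, 8.37, 10.06 and posterior levels of 10.36, 9.73, 10.35 (embryos A, B, C), and it ranked between place 43 and place 250 of all genes. Its differences were 2.09, 1.36 and 0.30. Dusp6 (chromosome 10, 99263231 to 99267489), the phosphatase that acts on ERK in the cytoplasm, was second in level in every library, with anterior levels of 4.80, 4.53, 6.27 and posterior levels of 7.37, 7.11, 6.63. The groups did not overlap, but in embryo C the gap was 0.36 against 2.56 and 2.58 in A and B. For both genes the library labelled anterior C was the highest of the anterior ones.

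Spry4 (chromosome 18, 38586247 to 38601347), the other Sprouty gene, had anterior levels of 0.39, 0, 0 and posterior levels of 3.67, 3.19, 3.14 (embryos A, B, C). Its 3 differences, 3.28, 3.19 and 3.14, were the closest to each other among the 10 genes (SD 0.07), and with anterior values at or near 0 they are close to the posterior levels themselves. Dusp4 (chromosome 8, 34807610 to 34819894), a nuclear phosphatase of MAP kinases, was at 0, 1.77 and 0.89 against 3.20, 4.58 and 4.22, with differences of 3.20, 2.81 and 3.33. For Spry4 and Dusp4, unlike Spry2 and Dusp6, the library labelled anterior C lay with the other anterior libraries. Spry2 exceeded Spry4 by 6.54 to 10.06, and Dusp6 exceeded Dusp4 by 2.41 to 5.39.

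Over the 10 genes the median difference was 1.72, against 0.43 over all tested genes. By embryo it was 3.42, 1.44 and 0.65 in A, B and C, against 0.91, 0.02 and 0.17 for the median tested gene. In each embryo 9 of the 10 genes were higher in the posterior piece, beside 67.8%, 50.8% and 53.6% of all tested genes in A, B and C. The exceptions were Etv4 in A (listed at 0 in both pieces), Fgf5 in B and Fgfr1 in C. Relative to the median gene of each library, the differences of Etv5 were 5.30, 4.20 and 5.03, those of Spry4 2.29, 3.26 and 2.59, those of Dusp4 2.22, 2.88 and 2.79, and those of Fgf8 4.48, 0.38 and 5.33. On that scale 4 of the 9 genes in the fits, Fgf8, Etv5, Spry4 and Dusp4, were higher in all 3 posterior libraries, beside 13.4% of all tested genes. Dusp6, Spry2 and Fgfr2 dropped out through embryo C, where they stood at -0.19, -0.25 and -0.46.

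**Figure D2:**
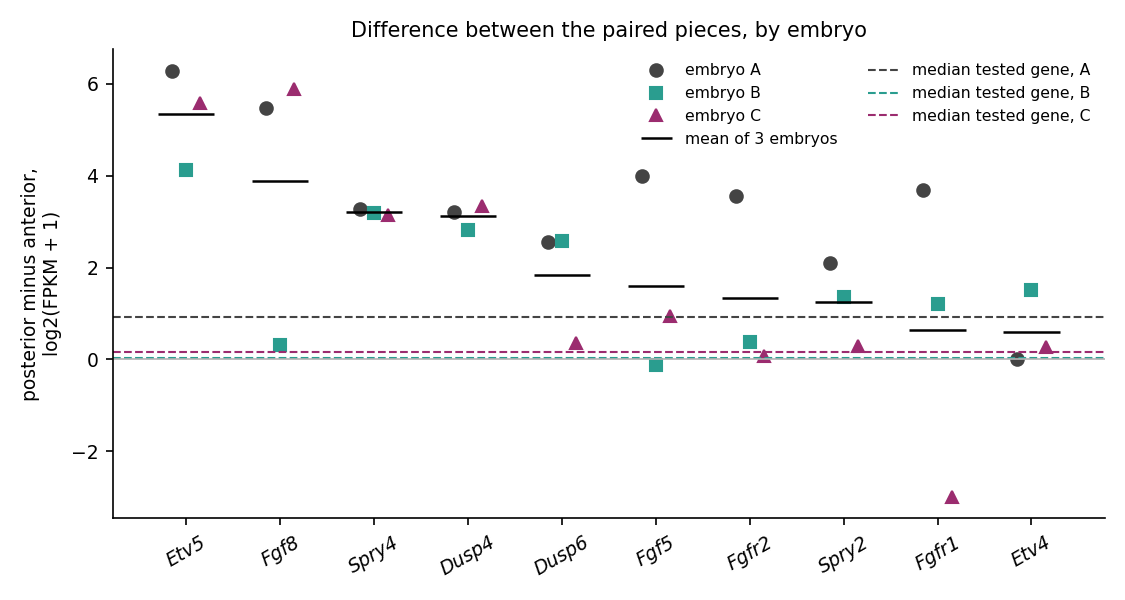
Posterior minus anterior difference (vertical axis, log2(FPKM + 1)) for each of the 10 genes, 1 point per embryo, with a bar at the mean and dashed lines at the median tested gene of each embryo. Spry4 and Dusp4 have 3 points close together near 3, Fgf8 has 1 low point in embryo B (0.31), and Fgfr1 has 1 negative point in embryo C (-2.99).

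Of the 10 genes, 5 have an entry in the RefSeq promoter table (build GRCm38.p6, the same coordinates as mm10): Fgf5, Fgfr2, Dusp6, Spry2 and Etv5. Shown here, 5′ to 3′ on the gene's strand, are the bases upstream of the gene that differed most and of the 2 most abundant inhibitors. For Etv5 only the part outside annotated exons is given. Capitals mark GGAAG on either strand, a longer string than GGAA, the core of ETS sites. GGAA before other bases is left in lower case and occurs in the Dusp6 and Spry2 windows shown.
Etv5, chr16:22439720-22439820, minus strand: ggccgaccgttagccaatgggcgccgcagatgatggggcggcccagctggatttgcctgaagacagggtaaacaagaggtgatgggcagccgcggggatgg
Dusp6, chr10:99262981-99263230, plus strand: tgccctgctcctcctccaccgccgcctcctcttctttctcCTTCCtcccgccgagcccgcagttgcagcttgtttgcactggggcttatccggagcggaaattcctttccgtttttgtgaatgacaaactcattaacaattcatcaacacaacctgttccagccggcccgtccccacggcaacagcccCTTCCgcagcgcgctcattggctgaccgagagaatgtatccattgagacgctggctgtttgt
Spry2, chr14:105896820-105897069, minus strand: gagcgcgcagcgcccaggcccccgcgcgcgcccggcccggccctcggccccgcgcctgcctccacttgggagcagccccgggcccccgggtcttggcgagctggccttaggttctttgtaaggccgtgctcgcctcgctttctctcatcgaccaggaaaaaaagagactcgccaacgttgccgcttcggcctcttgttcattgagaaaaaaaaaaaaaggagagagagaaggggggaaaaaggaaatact

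In the 250 bases upstream of the start, Dusp6 had 2 matches to GGAAG, both on the reverse strand and 62 and 210 bases before the start, and Fgf5 and Fgfr2 had 1 each. Spry2 and the Etv5 window shown had none, and a second Etv5 start in the table, further into the gene, had 2. Of 32841 promoters of the same length, 64.1% held at least 1 such match, so its presence sets no gene apart. The longer motif CCGGAAGT, which contains GGAAG, was in none of these windows and in 2.88% of all promoters. A match is a run of letters and not a measured binding site.

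Without embryo C, whose labels T goes against, the median over the 10 genes was 2.51, and 8 of the 9 in the fits were higher in both remaining posterior libraries, beside 38.5% of all tested genes. Without embryo A it was 1.18, with 7 of 9 beside 28.2%, and without embryo B it was 2.14, with 8 of 9 beside 37%. The difference of Fgfr1 changed sign to -0.89 without embryo A, and to -0.35 when the library posterior A and the embryo term were both left out. Leaving out the library anterior A together with the embryo term gave a median of 1.29.

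Across all 10914 genes no gene passed an adjusted p of 0.05 between the domains in limma (0% in either direction). At an unadjusted p under 0.05, 7.24% were higher in the posterior and 0.788% in the anterior domain, a split that changes with the scaling of the libraries (90.2% of these genes higher in the posterior domain as deposited, 59.1% with each library centred on its median). The median standard error over the 9 genes was 0.96, the same as over all tested genes. Differences among the 3 embryos are a contrast that did not enter the choice of the members. In limma's F test none of the 9 genes passed a p of 0.05, with unadjusted p from 0.288 (Spry2) to 0.95 (Fgf8) and adjusted p of 0.996 to 0.998. Over all genes 0% passed that test after adjustment and 2.77% at an unadjusted p under 0.05.

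In the posterior domain the order of mean levels, with the SD over 3 libraries, was Spry2 (10.15 ± 0.36), Dusp6 (7.03 ± 0.37), Etv5 (6.19 ± 0.44), Fgfr2 (4.75 ± 0.34), Fgf8 (4.65 ± 1.78), Fgfr1 (4.15 ± 2.16), Dusp4 (4.003 ± 0.72), Fgf5 (3.93 ± 0.45), Spry4 (3.33 ± 0.29) and Etv4 (0.59 ± 0.81). The neighbours from Fgfr2 to Fgf5 differed by less than their SDs, and Fgf5 exceeded Spry4 in all 3 posterior libraries. In the anterior domain Spry2 (8.90 ± 1.00) and Dusp6 (5.20 ± 0.94) again led. They were followed by Fgfr1 (3.52 ± 1.21), Fgfr2 (3.41 ± 1.85) and Fgf5 (2.33 ± 2.02), which overlapped each other. Dusp4, Etv5, Fgf8 and Spry4 were at means of 0.89, 0.86, 0.76 and 0.13. Etv5 therefore stood in place 7 of 10 in the anterior and in place 3 in the posterior domain.

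Over the 6 libraries the 10 genes correlated with each other at a median Pearson r of 0.63, and all 45 pairs were above 0. After each library was centred on its median gene, the median was 0.39 and 39 pairs were above 0. These values describe 6 libraries, of which each pair shares an embryo and the posterior ones are the deeper. The genes were chosen with their domain values known, and all 10 were higher in the posterior domain on average. Correlations above 0 follow in part from that choice, and nothing is read from their number. The closest pairs were Etv5 with Spry4 (0.97) and with Dusp4 (0.94), Fgf5 with Fgfr2 (0.97), and Spry2 with Dusp6 (0.92), and after centring these were 0.94, 0.92, 0.94 and 0.89. Fgfr1 correlated at 0.06 to 0.56 with the others and Etv4, which is at 0 in 4 libraries, at 0.09 to 0.66.

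Among all tested genes, those most like Etv5 over the 6 libraries were Bcat1, a branched-chain amino acid aminotransferase (Pearson r 0.994), Wnt3, the Wnt ligand of the early streak (0.993), and Arfgap2 (0.993). Wnt3 had anterior levels of 0, 2.13, 0.92 and posterior levels of 6.84, 5.76, 6.15 (embryos A, B, C). Spry4 came in place 70 and Dusp4 in place 173 of that order. Fgf8 was most like Cirbp, a cold-inducible RNA-binding protein (0.997), a joined entry of Cbx6, Npcd and Nptxr (0.996) and Cdk5rap1 (0.995), and Fgf5 was most like Ppa1 (0.997), 3200002M19Rik (0.996) and Mrps7 (0.996). These correlations rest on 6 points, paired by embryo and unequal in depth, and they are given with no test.

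The other genes of the pathway, in 6 lists, numbered 104, of which 85 are in the table and 77 were tested. None passed an adjusted p of 0.05 in limma. The counts of higher genes below stand beside 64.9% of all tested genes that were higher in the posterior domain on average. At an unadjusted p under 0.05 there were 2 higher and 1 lower in the posterior domain, all early response genes. The other FGF ligands were scarce. Of 20 listed, 9 are in the table and 6 passed the filter on low values. Fgf4 and Fgf17 are at 0 in every anterior library and passed only through the posterior ones. So did Fgf10 and Fgf15, with levels of 0.47, 0.22, 0.35 and of 0, 0, 1.39 in anterior A, B, C. The median difference was 1.52 over the 6 and 0.91 over the list with no filter. Among the 4 with the highest mean level, Fgf10 and Fgf15 differed by 1.58 and 1.55. Fgf13 and Fgf11, intracellular members of the family, differed by 0.23 and -1.04. Fgf4, the ligand of embryonic stem cells on which trophoblast stem cells depend, was named after its values were seen: every anterior piece had it at 0, and the posterior pieces of A, B and C had levels of 2.10, 1.84 and 0.55.

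Receptors and co-receptors other than Fgfr1 and Fgfr2 had a median difference of 0.07 over 17 tested genes, 10 of them higher in the posterior domain. The abundant heparan sulphate carriers Sdc4, Gpc3 and Gpc1 differed by 0.17, 0.07 and -0.52, and Ext1, which builds heparan sulphate chains, by -0.26. Along the Ras-ERK cascade the median over 19 genes was 0.13, with 11 higher in the posterior domain. Nras and the adaptor gene Grb2 differed by 1.01 and -0.12, and Nras was higher in the posterior piece of only 1 embryo. The kinase genes Braf and Mapk3 (ERK1) differed by -0.51 and -0.92, and Mapk3 was lower in the posterior library of all 3 embryos. The remaining ETS factors (7 tested, 4 higher, median 0.62) held none that was higher or lower in all 3 embryos, and Gabpa, Ets2, Elk1 and Ets1 differed by 0.90, 0.77, -0.41 and 0.62. The limma adjusted p of these 3 lists was 0.646 or more. With each library centred on its median, the list medians were -0.42 for the receptors and co-receptors, -0.36 for the cascade and 0.13 for the ETS factors.

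Feedback inhibitors other than the 4 described had a median difference of 0.06, with 8 of 16 tested genes higher in the posterior and 8 in the anterior domain. With each library centred on its median the list median was -0.43. Il17rd (Sef), a membrane inhibitor of FGF receptors, was higher on the posterior side in all 3 embryos, with 2.02, 3.90, 1.02 in the anterior pieces of A, B, C and 3.54, 4.13, 5.28 in the posterior pieces. Dusp9, a phosphatase of ERK known from embryonic stem cells and placenta, was lower there in all 3, at 6.57, 5.27 and 4.90 against 2.53, 3.82 and 4.39. Spred1 and Rasa1 differed by 1.71 and 0.20, each higher in the posterior piece of 2 embryos. Among those named after their values were seen, Spry1 was at 3.10, 2.72 and 3.37 against 1.27, 1.997 and 1.22, so that the Sprouty genes Spry1 and Spry4 ran opposite ways between the pieces, and Spred2 was at 0, 0.78 and 0 against 1.98, 2.30 and 2.29. Spred2 passed the filter on low values only through its posterior libraries, as did Dusp14, which was at 0 in all 3 anterior libraries. The smallest limma adjusted p of this list was 0.617.

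Of 12 early response genes that ERK is known to induce, 11 were higher in the posterior domain on average, with a median difference of 1.00. That median was 0.17 without embryo C, 0.52 with each library centred on its median and 0.43 after quantile normalization. Mcl1, Ier2, Fos and Jun, the most abundant, differed by 0.68, 1.76, 0.92 and 1.09. Ier2 and Mcl1 were higher in all 3 posterior libraries, and Fos and Jun in the posterior piece of 2 embryos. The list median was 0.63, 0.46 and 3.19 in embryos A, B and C. The 3 genes past an unadjusted p of 0.05, named after their values were seen, were Junb and Ier5 (differences 3.21 and 2.47) and Ier3 (-4.47), with limma adjusted p of 0.551, 0.608 and 0.520. Junb was at 0, 1.02, 0 and Ier5 at 0.91, 0.21, 0 in anterior A, B, C. Fosb, also among the genes higher on average, was at 0, 0.18, 0 there. These genes thus passed the filter on low values only through the posterior libraries.

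**Figure D3:**
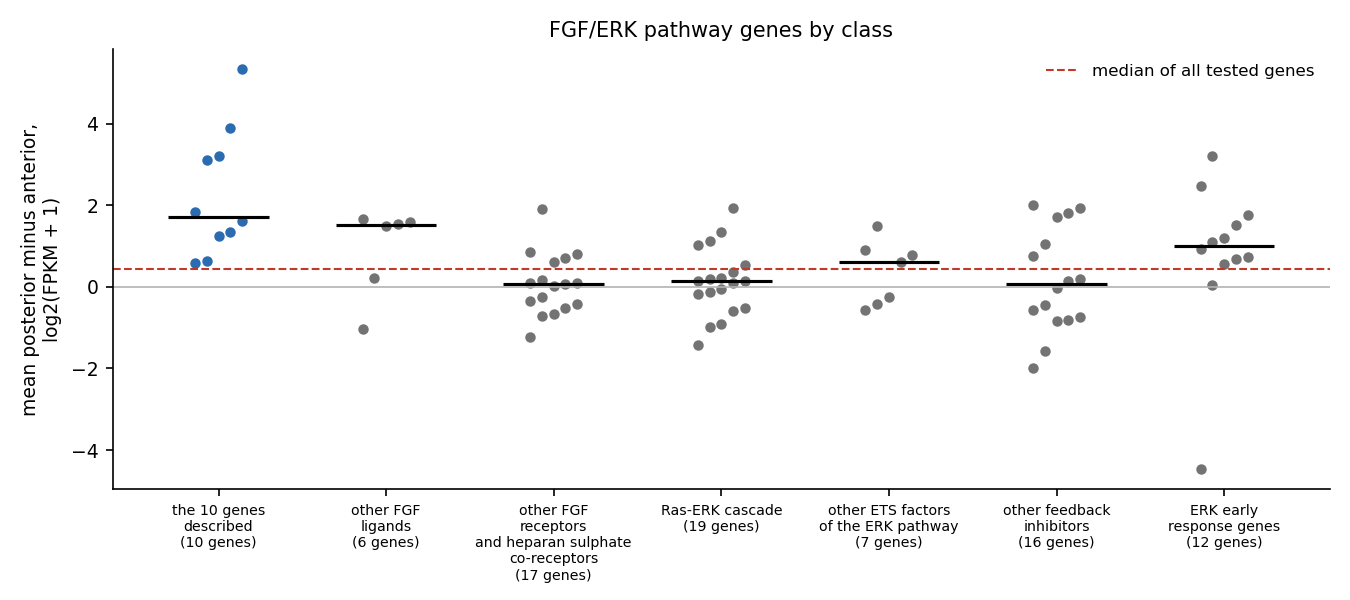
Mean posterior minus anterior difference over 3 embryos (vertical axis, log2(FPKM + 1)), 1 point per gene, for the 10 genes described (blue) and the tested genes of the 6 other lists (grey), with black bars at each median and a dashed line at the median of all tested genes (0.43). The 10 genes lie between 0.59 and 5.33, and the other feedback inhibitors lie on both sides of 0, from -1.998 to 2.004.

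The sums of epiblast and streak markers were higher in the posterior piece of every embryo, and those of endoderm and trophoblast markers were not. The part of these cell types in the differences of the 10 genes was not tested. The 10 epiblast markers, all in the table, summed to 21.9 and 64.1 FPKM in anterior A and B, 294 FPKM in the piece labelled anterior C and 237 to 417 FPKM in the posterior libraries. Tdgf1 and Dppa4 were at 0 in all 3 anterior libraries, whereas in embryo C the levels of Otx2, which led the anterior sum, Pou3f1 and Dnmt3b were higher in the anterior piece (7.29, 3.85 and 5.92 against 4.15, 0.62 and 5.24). The 10 streak markers summed to 78.9 to 98.5 FPKM in the anterior libraries, most of it Fst, and in anterior C also T (42.5 FPKM). In the posterior libraries they summed to 280 to 422 FPKM. Mixl1, Sp5 and Mesp1 were at 0 in all 3 anterior libraries. Of 10 visceral endoderm markers 8 are in the table. They summed to 594 and 800 FPKM in anterior A and B, 107 FPKM in the piece labelled anterior C and 71.5 to 166 FPKM in the posterior libraries. Rbp4, Ttr, Hnf4a and 4 others were at 0 in anterior C, where Lrp2 alone was above 0. The 11 markers of parietal and XEN-type endoderm, led by Sparc, summed to 1120 and 1677 FPKM in anterior A and B, 297 FPKM in anterior C and 287 to 750 FPKM in the posterior libraries, and Sox7, Sox17 and Gata4 were at 0 in anterior C. Of 10 trophoblast markers 8 are in the table, with sums of 302 to 443 FPKM in the anterior and 267 to 630 FPKM in the posterior libraries, led everywhere by Krt18, a keratin that endoderm also expresses. Elf5 was at 0 in 4 of the 6 libraries.

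Set beside these sums, the library labelled anterior C had a sum of epiblast markers within the posterior range. Its sum of streak markers was near the other anterior ones, but 42.5 FPKM of it was T, which was at 0 in anterior A and B. The levels of Fgfr2, Spry2 and Dusp6 in anterior C (4.91, 10.06 and 6.27) were 0.08, 0.30 and 0.36 below those of posterior C. Those of Etv5, Spry4, Dusp4 and Fgf8 (0.89, 0, 0.89 and 0) were lower by 3.14 to 5.88. In embryo C the visceral endoderm sums were 107 FPKM in the anterior and 71.5 FPKM in the posterior piece, and the parietal and XEN-type sums were 297 and 750 FPKM. The differences of Etv5, Spry4 and Dusp4 in that embryo were 5.58, 3.14 and 3.33, beside 4.13, 3.19 and 2.81 in embryo B. Those of Fgf8, Dusp6, Spry2 and Fgfr1 were 5.88, 0.36, 0.30 and -2.99, beside 0.31, 2.58, 1.36 and 1.21 in embryo B. Fgf5, Fgfr2 and Etv4 differed by 0.94, 0.08 and 0.27, beside -0.11, 0.39 and 1.51. The part of cell types in these differences was not tested.

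**Figure D4:**
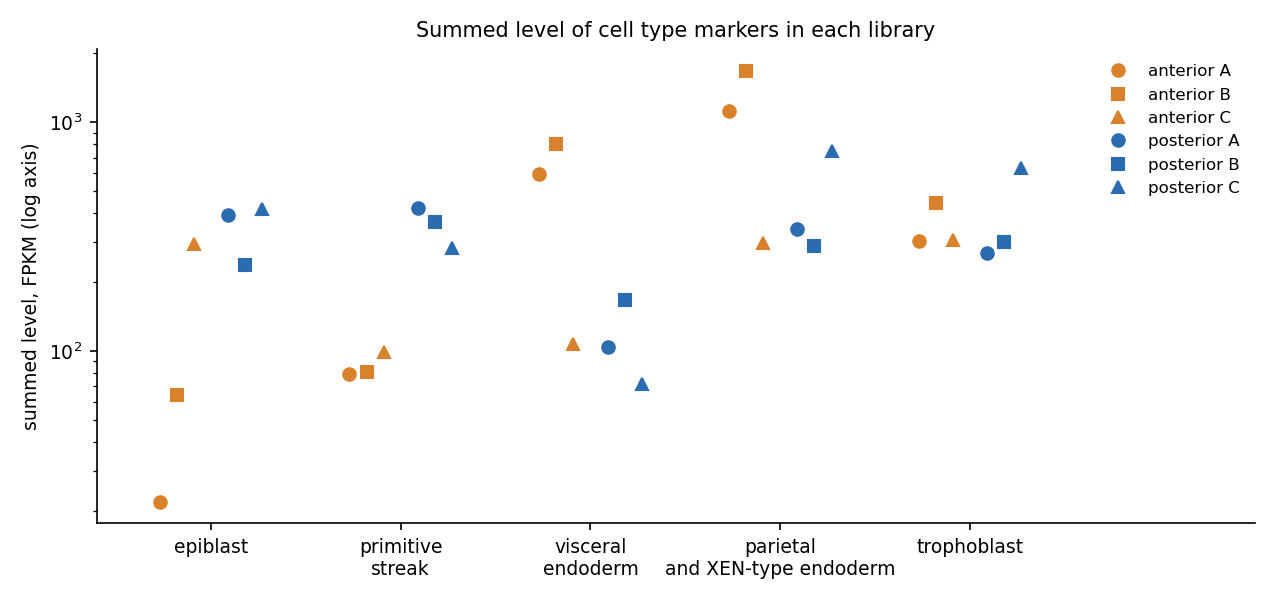
Summed level of 5 lists of cell type markers in FPKM on a logarithmic vertical axis, with a point for each library coloured orange (anterior) or blue (posterior) and shaped by embryo (circle A, square B, triangle C). Streak markers separate the domains (78.9 to 98.5 against 280 to 422 FPKM), and both endoderm lists are highest in anterior A and B.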

How the data were processed

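Libraries were made from single dissected pieces with the Smart-seq2 protocol, which keeps no strand, and 18 cycles of pre-amplification, and a HiSeq 2500 read them, per the labels' protocols. TopHat2 2.0.4, Cufflinks 2.0.2 and build mm10 are named in the submitters' processing notes, and the labels' protocols name Ensembl version 38.77 and HTSeq-count. The sources used here do not say which of these made the table. The deposited values are log2(FPKM + 1): read as log2, 99.1% to 99.5% of values above 3 return an FPKM of at most 6 digits, against 1.03% to 1.19% read as a natural log.

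The 10 genes and all lists were chosen with earlier results of these data known. Rows were matched by exact name. The 10914 genes averaging 1 FPKM or more were fitted in limma 3.58.1 (R 4.3.3) with domain and embryo as terms, a mean-variance trend and Benjamini-Hochberg adjustment over all of them, leaving 2 residual and 7.5 prior degrees of freedom. The embryo letter pairs the 2 pieces of 1 structure. Deviations of paired pieces correlated at -0.07, 0.04 and -0.03. Replicates are 3 separate structures. Depth is given only relative to anterior A, from steps in low values that 28 to 67 of 388 to 481 genes share, so it is approximate, and whole reads were not recovered. Named besides the 10 genes were the 4 genes of highest mean level of each pathway list, the 3 genes most like Fgf8, Fgf5 and Etv5, T and the leading markers, and others are said to be chosen after their values were seen. Alternatives were other pseudocounts (0.1 and 5), filters, scalings, no trend, no embryo term leaving out an embryo, and leaving out a library together with the embryo term.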

Additional observations from a re-analysis of the deposited data

How the results depend on the processing

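Under the 13 alternatives that can change a gene's mean difference, the 10 genes gave 130 values. Of these, 128 were above 0, and both values below 0 belonged to Fgfr1. The 10 genes were chosen with this contrast known, and all lay above 0 as deposited. The alternatives rework the same libraries, so nothing is read from that count. Moves of less than 1 SD over embryos made up 112 of the 130 values, and the 18 larger ones belonged to Etv4, Etv5, Spry4 and Dusp4. Leaving out 1 of 3 embryos cannot move a mean by 1 SD over those embryos, so those settings fell among the 112 in any case. The SD was also wide for some genes: Fgf8 (SD 3.10) went from 3.89 to 6.11 with a pseudocount of 0.1 and is among the 112. The median over the 10 genes was 2.33 and 1.36 with pseudocounts of 0.1 and 5, 1.23 with each library centred on its median, 1.45 after quantile normalization and 1.18 to 2.51 with an embryo left out. Centring brought the median of all tested genes from 0.43 to -0.0601, and the genes among the 10 higher in all 3 posterior libraries from 7 to 4. Over the other FGF ligands the median ran from 0.53 to 3.01 with the pseudocount, and with a mean of at least 5 FPKM that list gave no value.

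Between the domains, leaving out an embryo called 0 genes in limma. Leaving out 1 library together with the embryo term called 0 to 1 genes, 0 to 1 higher in the anterior (Mir682, adjusted p 0.0328 without anterior C) and 0 to 1 higher in the posterior domain (Snord35b, adjusted p 0.0215 without posterior C). At an unadjusted p under 0.05, 429 genes were higher in the posterior and 297 in the anterior domain after centring, and 276 in the anterior after quantile normalization. Leaving out an embryo, or a library and the embryo term, gave 348 to 1269 higher in the posterior and 36 to 232 in the anterior domain. The share higher in the posterior domain was 90.2% as deposited, 59.1% centred, 65.6% after quantile normalization, 77.9% without embryo A and, with the embryo term also dropped, 76.4% without anterior A and 79.6% without anterior C. Without the replicate block, 0 genes were called, with 912 and 119 at an unadjusted p under 0.05.

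Among embryos, 3 genes were called with no filter, 3 after centring and 3 after quantile normalization (Rbp4, Snora31 and Snord8 each time), and 0 to 4 with a replicate left out, the 4 without embryo A. At an unadjusted p under 0.05 the count was 184 with a mean of at least 5 FPKM and 120 to 533 with a replicate left out. The cause of these shifts was not tested. With 3 embryos and unequal depth, genes listed at 0 in the shallower anterior libraries limit what the differences of Fgf8, Fgf5, Spry4, Dusp4 and Etv4 can show.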
